A study of Homo sapiens with 4 samples.

Results

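The SAGA complex (Spt-Ada-Gcn5 acetyltransferase) is a transcriptional coactivator with several modules. USP22 is the catalytic subunit of the module that removes ubiquitin from histone H2B. The subunits described here belong to the other modules of the same complex. They were taken as the genes whose symbol in the deposited count table was *KAT2A*, *KAT2B*, *TADA2B*, *TADA3*, *TADA1*, *SUPT3H*, *SUPT7L*, *SUPT20H*, *TAF5L* or *TAF6L*. All 10 were found among the 28278 symbols of the table, and all 10 passed the filter on low counts, as did 15150 genes in all.

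In SAGA, KAT2A (GCN5) or KAT2B (PCAF) acetylates the tail of histone H3 as alternative catalytic subunits. TADA2B and TADA3 are adaptors that hold the acetyltransferase and tune its activity on nucleosomes. TADA1, SUPT7L, SUPT20H, TAF5L and TAF6L belong to the core that carries the modules, and SUPT3H is the core subunit linked to the delivery of the TATA-binding protein to promoters. TAF5L and TAF6L take the places that their paralogs TAF5 and TAF6 hold in the general transcription factor TFIID.

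RNA was sequenced from 4 libraries of cells labelled HepG2, a human hepatocellular carcinoma cell line. All cells had been infected with lentivirus carrying Cas9, together with a control sgRNA in 2 libraries and with a *USP22* sgRNA in the other 2, and were stable populations selected with puromycin. All 4 libraries were from cells treated with 10 µM Sorafenib, a multi-kinase inhibitor, for 24 h, so that the values describe drug-treated cells in both groups. Nothing in the sources used here says whether the 2 libraries of a group came from separate cultures, so the p-values measure only the spread between these samples, which may be technical.

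The total counts lay between 62030307 and 64728272 per library. For *USP22*, the gene targeted, 16450 and 16537 counts were read under the control label and 20279 and 20368 under the label sgUSP22, an increase of 0.22 on the log2 scale (SE, the standard error of the log2 fold change, 0.034; adjusted p = 0.000394 by the quasi-likelihood test of edgeR). Its transcript thus did not fall under that label, and “sgUSP22 libraries” stands below for the libraries labelled sgUSP22, whose label sets every direction. A count over the whole gene does not show whether its coding sequence was edited. The study reports a check of the knockout by Western blot in its stable cells, and RNA counts do not measure protein. Of 24 hepatocyte markers, 13 were listed at 0 in all 4 libraries, *ALB*, *APOA1* and *TTR* among them, and 23 had at most 20 counts in every library. The labelled cell type was therefore not borne out by its defining markers, while *VIM* had between 806 and 1078 CPM (counts per 1000000 counts of the library, scaled with TMM factors) and *COL3A1* between 499 and 576 CPM. Summed marker levels differed between the groups: from 3.57 to 3.67 CPM in control and from 2.18 to 2.81 CPM in sgUSP22 libraries for hepatocyte markers, from 1759 to 1799 and from 1323 to 1381 for the 7 epithelial markers, from 2092 to 2097 and from 2212 to 2238 for the 9 mesenchymal markers, and from 73.9 to 74.4 and from 44.2 to 47.2 for the 7 blood and endothelial markers, nearly all of the last from *CD68*. Most of the hepatocyte sum came from *ASGR1*, with 3.23 and 3.01 CPM in control and 1.9 and 1.64 CPM in sgUSP22 libraries. The mesenchymal markers differed in both directions. *FN1* had 279 and 280 CPM in control and 609 and 612 CPM in sgUSP22 libraries. *COL3A1* had 499 and 507 against 576 and 569, and *ZEB1* 31.3 and 29.4 against 36.8 and 37.3. Lower in sgUSP22 libraries were *VIM*, with 1078 and 1067 against 830 and 806, *CDH2*, with 144 and 144 against 124 and 119, and *PDGFRB*, with 8.99 and 8.83 against 4.93 and 4.12. Among epithelial markers *KRT8* had 763 and 787 CPM in control and 611 and 590 CPM in sgUSP22 libraries and *KRT18* 993 and 1007 against 762 and 724, while *CLDN4* had 3.02 and 4.13 against 8.4 and 8.3. Of the epithelial markers *CDH1* and *KRT19* were listed at 0 in all 4 libraries, and of the blood and endothelial markers *CD3E* and *HBB*. The part of these differences in the results below was not tested, and in bulk RNA fewer cells of a type and less RNA per cell cannot be told apart.

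To relate the subunits to their genes, their start regions were read from RefSeq (GRCh38.p14, from 250 bases before to 50 bases after each annotated start), where all 10 symbols matched. The promoters of the 2 acetyltransferase genes, whose log2 fold changes had opposite signs, and of *TADA1* and *TAF5L*, which had the largest increases, are printed 5′ to 3′ along the gene. The increase of *KAT2B* did not pass the adjusted p threshold in every fit, as given below. Capitals mark exact matches, on either strand, to the letters TATAAA of the TATA box, CCAAT of the box named after them, GGGCGG of the usual GC box, CCGGAA of the ETS factor core or AAGATGGC of the YY1 motif, and no matches overlapped in these 4 windows.
KAT2A, chr17:42121318-42121617, minus strand: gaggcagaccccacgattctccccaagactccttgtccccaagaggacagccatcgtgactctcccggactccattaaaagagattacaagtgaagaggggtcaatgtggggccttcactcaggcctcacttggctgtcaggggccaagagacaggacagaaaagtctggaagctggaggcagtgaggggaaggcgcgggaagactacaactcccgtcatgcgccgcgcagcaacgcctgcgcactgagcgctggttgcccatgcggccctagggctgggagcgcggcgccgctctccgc
KAT2B, chr3:20040196-20040495, plus strand: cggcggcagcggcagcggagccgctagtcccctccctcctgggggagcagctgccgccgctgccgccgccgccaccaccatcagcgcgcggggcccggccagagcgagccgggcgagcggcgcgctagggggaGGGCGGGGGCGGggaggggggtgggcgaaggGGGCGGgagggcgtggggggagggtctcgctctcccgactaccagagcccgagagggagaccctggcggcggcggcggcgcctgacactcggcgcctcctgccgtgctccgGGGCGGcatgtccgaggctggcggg
TADA1, chr1:166876215-166876514, minus strand: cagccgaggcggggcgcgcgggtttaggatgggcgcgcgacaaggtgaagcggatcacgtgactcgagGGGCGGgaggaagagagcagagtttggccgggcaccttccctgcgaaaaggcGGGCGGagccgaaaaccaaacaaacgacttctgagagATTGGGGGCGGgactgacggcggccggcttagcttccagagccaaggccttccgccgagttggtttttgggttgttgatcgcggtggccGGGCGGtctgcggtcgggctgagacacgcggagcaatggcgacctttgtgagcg
TAF5L, chr1:229626073-229626372, minus strand: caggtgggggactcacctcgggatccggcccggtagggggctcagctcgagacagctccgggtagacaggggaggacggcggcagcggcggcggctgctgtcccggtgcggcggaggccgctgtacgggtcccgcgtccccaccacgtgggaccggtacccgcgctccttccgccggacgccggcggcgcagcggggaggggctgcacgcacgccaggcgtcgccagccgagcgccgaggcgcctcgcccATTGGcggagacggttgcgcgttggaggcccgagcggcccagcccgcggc

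The 2 acetyltransferase promoters differed in composition. The *KAT2A* window had 62% G and C and 18 CpG dinucleotides and held none of the 5 motifs, while the *KAT2B* window had 80.3% G and C, 40 CpG and 4 GC boxes. The median over 35116 promoters was 58.7% G and C and 14 CpG. A CCAAT box stood in the windows of *TADA1*, *TADA2B*, *TAF5L*, *TAF6L* and *SUPT20H*, or 5 of 10 subunits, against 34.6% of all promoters of this length. A GC box was found in 7 of 10 subunits (45% of all promoters): *KAT2B*, *SUPT20H*, *SUPT3H*, *TADA1*, *TADA2B*, *TADA3* and *TAF6L*. An ETS core was found in 4 (17.2%), the YY1 letters in 1, *SUPT3H* (2.89%), and the TATA box in 0 (11.5%). These are matches of letters only, and whether any motif goes with the direction of change was not tested. For *TADA3* and *SUPT3H*, which have 2 annotated start regions each, a match in either was counted.

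Of the 10 subunits, 4 were higher in the libraries labelled sgUSP22 (*TADA1*, *TAF5L*, *TADA2B* and *KAT2B*), 3 were lower (*KAT2A*, *TADA3* and *SUPT3H*) and 3 did not pass the test (*SUPT7L*, *SUPT20H* and *TAF6L*), at an adjusted p below 0.05 (quasi-likelihood test of edgeR, adjusted by Benjamini-Hochberg over all tested genes). All 7 changes were under 1.5-fold, the fold change threshold of the study, so that 0 subunits were called at both thresholds by edgeR, and 0 by DESeq2. Unadjusted p-values were under 0.05 for the same count of 7. For DESeq2, 7.14% of genes were called higher and 5.59% lower. At the adjusted p threshold alone DESeq2 had 3 subunits higher and 2 lower, as *KAT2B* and *SUPT3H* did not pass. The share of all genes at that threshold alone was not counted for DESeq2. Over all genes tested by edgeR, 26.8% were higher and 25.8% lower at the adjusted p threshold alone, and 8.88% were higher and 7.25% lower with the 1.5-fold threshold added. With 7 of 10, the share of the subunits past the adjusted p threshold stood beside 52.5% of all tested genes. Unadjusted p-values were under 0.05 for 57.7% of tested genes. In a direct test against a fold change of 1.5, 3.82% of tested genes were higher and 2.83% lower. That 0 subunits were either follows by construction, as every subunit estimate was under 1.5-fold. The libraries of the groups did not overlap for the 7 subunits that passed, 4 higher and 3 lower, and for 75.9% of all tested genes (38.3% higher and 37.6% lower). The median log2 fold change of the subunits was 0.032, against 0.00091 over all tested genes, and ranged from -0.32 to 0.52.

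**Figure D1:**
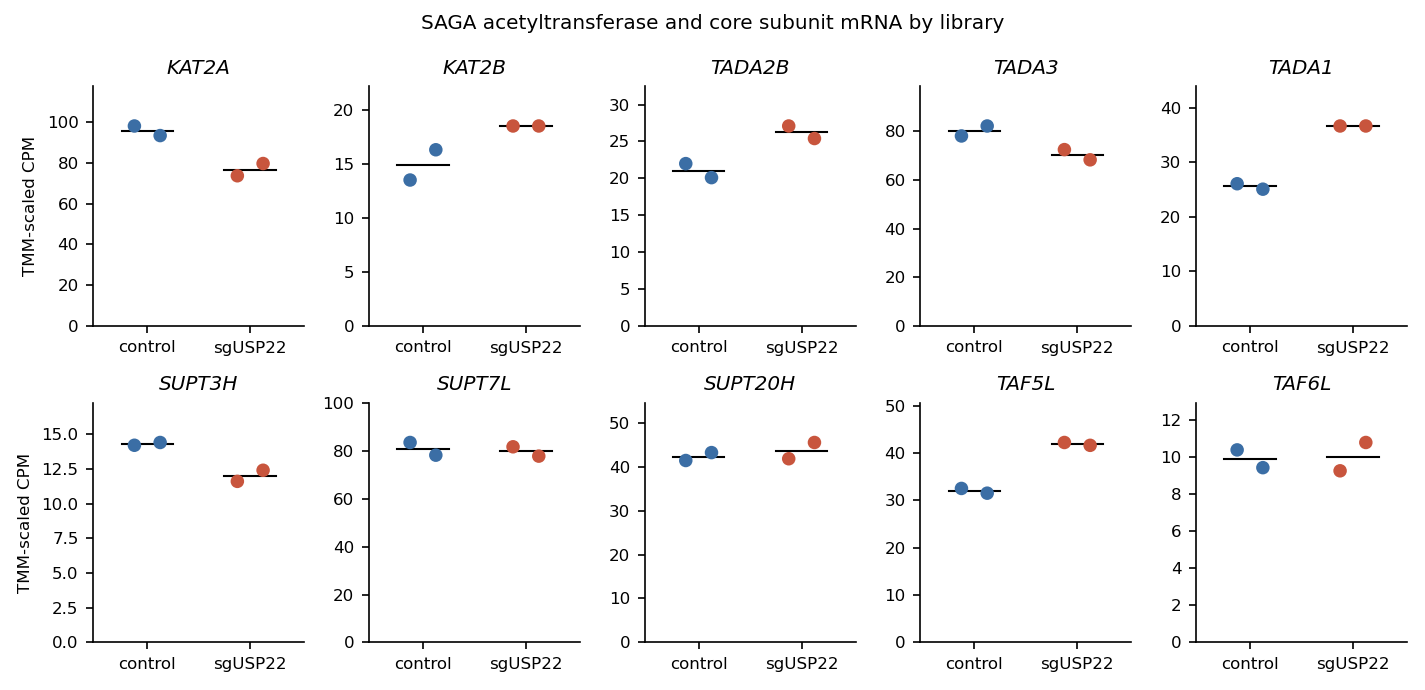
Level of each subunit in every library, in TMM-scaled CPM on an axis that starts at 0, with 1 point per library (control in blue, sgUSP22 in red) and a bar at the group mean. The 2 groups stand apart for *KAT2A*, *KAT2B*, *TADA2B*, *TADA3*, *TADA1*, *SUPT3H* and *TAF5L*, and overlap for *SUPT7L*, *SUPT20H* and *TAF6L*.

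The estimates of the catalytic subunits had opposite signs, with and without a correction for GC content and length. That of *KAT2B* did not pass the adjusted p threshold in every fit. *KAT2A*, on hg38 chromosome 17 from 42113111 to 42121367 (minus strand), had 98 and 93.3 CPM in control and 73.6 and 79.6 CPM in sgUSP22 libraries. Both sgUSP22 libraries lay below both control libraries. The means were 95.6 ± 3.32 (SD, n = 2) and 76.6 ± 4.2 (SD, n = 2) CPM, and the log2 fold change was -0.32 (SE 0.050, adjusted p = 0.000448 by edgeR), a 0.801-fold level. Corrected for GC content and length, the estimate for *KAT2A* was -0.18 (adjusted p = 0.0137 by edgeR). Of its 50-base stretches, 11.7% are shared with an overlapping readthrough gene that is not in the table.

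*KAT2B*, the paralog of *KAT2A*, lies on the plus strand of chromosome 3 from 20040446 to 20154404. It had 13.5 and 16.3 CPM in control and 18.5 and 18.5 CPM in sgUSP22 libraries, so that its groups did not overlap, although the control libraries differed from each other more than for any other subunit. This gap was 0.271 on the log2 scale, against a median of 0.0796 over all tested genes, and was larger than that of 87.5% of them. The log2 fold change of *KAT2B* was 0.31 (SE 0.11, adjusted p = 0.0306 by edgeR). Without control replicate 1, the lower of the control libraries, it was 0.18 (adjusted p = 0.227), and without control replicate 2 it was 0.46 (adjusted p = 0.00587). Without sgUSP22 replicate 1 or 2 the adjusted p was 0.073 and 0.071, and by DESeq2 it was 0.0544. Corrected for GC content and length, the estimate for *KAT2B* was 0.17 (adjusted p = 0.2 by edgeR). The increase of *KAT2B* thus passed the threshold in some fits and not in others.

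Per kilobase of transcript, *KAT2B* was the minor form in every library. The ratio of *KAT2B* to *KAT2A* was 0.097 and 0.124 in control and 0.177 and 0.165 in sgUSP22 libraries. Both sgUSP22 ratios exceeded both control ratios, by 1.56-fold on average. With 2 libraries per group an exact two-sided permutation test cannot go below 0.333, the value it gave. The log2 change of the ratio was 0.64 as measured, and 0.63 as the difference of the estimates of the main fit. With GC content and transcript length corrected for, that difference was 0.35. This alternative was added for the ratio once its value had been seen.

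The estimates of *TADA2B* and *TADA3*, the adaptors of the acetyltransferase module, also had opposite signs. The decrease of *TADA3* did not pass the adjusted p threshold in every fit, as given below. *TADA2B*, on chromosome 4 from 7041899 to 7057952 on the plus strand, had 22 and 20.1 CPM in control and 27.1 and 25.4 CPM in sgUSP22 libraries. Its log2 fold change was 0.32 (SE 0.081, adjusted p = 0.00778 by edgeR), and both sgUSP22 libraries were above both control libraries. It remained past the threshold with each library left out, with log2 fold changes from 0.26 to 0.38.

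*TADA3*, on the minus strand of chromosome 3 from 9779967 to 9793011, had 78 and 82.1 CPM in control and 72.4 and 68.2 CPM in sgUSP22 libraries. The groups did not overlap, with a log2 fold change of -0.19 (SE 0.049, adjusted p = 0.00942 by edgeR). Once GC content and transcript length were corrected for, it was -0.018 (adjusted p = 0.769), and without control replicate 2 or sgUSP22 replicate 2 the adjusted p was 0.0618 and 0.0744. *TADA3* shares 211 exonic bases with *ARPC4* on the opposite strand, which had a log2 fold change of -0.34 (adjusted p = 9.67e-05 by edgeR), and 356 with *OGG1*. The strand setting of the counts is not given in the sources used here, so reads from these stretches cannot be told apart.

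The largest change among the subunits was that of *TADA1*, except with GC content and length corrected for, where *SUPT3H* had -0.48 and *TADA1* 0.45. *TADA1* is the ADA1 subunit of the core, on the minus strand of chromosome 1 from 166856510 to 166876264. It had 1591 and 1564 counts in control and 2409 and 2369 counts in sgUSP22 libraries, or 26.1, 25.1, 36.7 and 36.7 CPM. The gap between the groups was far wider than that between replicates. The log2 fold change was 0.52 (SE 0.064, 95% interval from 0.38 to 0.66, adjusted p = 9.67e-05 by edgeR), a 1.43-fold increase just under the threshold of 1.5, which lies at 0.585 on this scale. Its lowest estimate with all 4 libraries was 0.45, with GC content and length corrected for, and its highest was 0.57, with scaling by library size only. In absolute size this change was larger than that of 73.5% of all tested genes.

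*TAF5L*, also on the minus strand of chromosome 1, from 229593134 to 229626122, encodes a WD-repeat protein that stands in SAGA for TAF5. It had 32.5 and 31.5 CPM in control and 42.2 and 41.6 CPM in sgUSP22 libraries, a log2 fold change of 0.39 (SE 0.058, 95% interval from 0.26 to 0.52, adjusted p = 0.000311 by edgeR). Its groups did not overlap, and the change was past the adjusted p threshold with each library left out. *TAF6L*, the SAGA counterpart of TAF6 on chromosome 11 from 62771357 to 62787342, had the lowest CPM of the 10 subunits. Its 10.4 and 9.44 CPM in control and 9.27 and 10.8 CPM in sgUSP22 libraries overlapped, and its log2 fold change of 0.019 had a 95% interval from -0.25 to 0.28 (adjusted p = 0.912 by edgeR). *TAF6L* shares 79 exonic bases with *TMEM223*, and 398 and 134 with noncoding RNA genes, all on the opposite strand. Its counts may include reads of these genes.

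Among the SPT subunits, *SUPT3H*, which spans chromosome 6 from 44809317 to 45377953 on the minus strand, was lower. It had 14.2 and 14.4 CPM in control and 11.6 and 12.4 CPM in sgUSP22 libraries, a log2 fold change of -0.25 (SE 0.095, 95% interval from -0.46 to -0.039, adjusted p = 0.0482 by edgeR). The groups did not overlap, but the adjusted p was above 0.05 with any library left out (from 0.0554 to 0.163), by DESeq2 (0.155), with library size alone (0.108) and with the replicate number as a block (0.0519). With the GC and length correction, its log2 fold change was -0.48 (adjusted p = 0.00155).

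*SUPT7L* and *SUPT20H* did not pass the test, and their intervals excluded a 1.5-fold change. *SUPT7L*, on chromosome 2 from 27650809 to 27663840, had 83.5 and 78.2 CPM in control and 81.7 and 77.8 CPM in sgUSP22 libraries, with a log2 fold change of -0.02 (95% interval from -0.13 to 0.09, adjusted p = 0.765 by edgeR). *SUPT20H*, on chromosome 13 from 37009312 to 37059713, had 41.4 and 43.2 CPM in control and 41.8 and 45.5 CPM in sgUSP22 libraries, with a log2 fold change of 0.045 (95% interval from -0.091 to 0.18, adjusted p = 0.571 by edgeR). Their groups overlapped. *SUPT20H* shares 2138 exonic bases with *EXOSC8* on the opposite strand, and *SUPT7L* shares 703 with *GPN1* and 415 with *SLC4A1AP*, so that their counts may include reads of these genes.

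**Figure D2:**
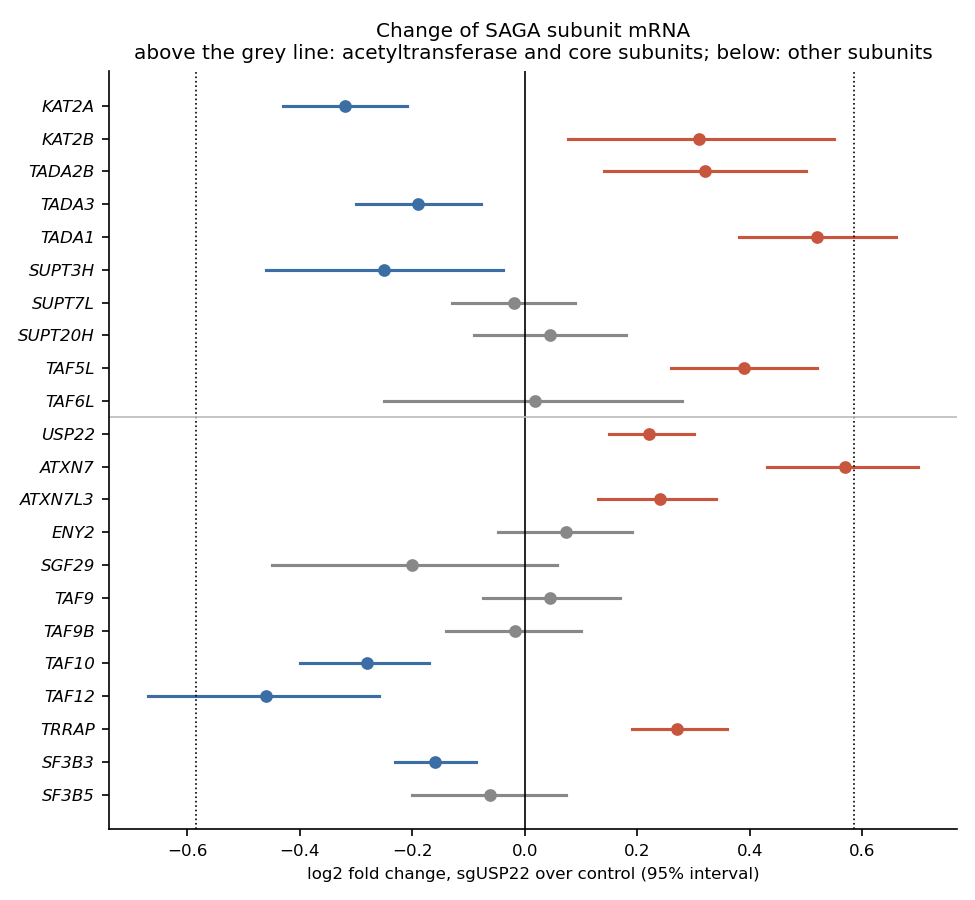
Log2 fold change (sgUSP22 over control) with its 95% interval from edgeR for the 10 acetyltransferase and core subunits, above the grey line, and for 12 other SAGA subunits below it. Red marks genes higher and blue genes lower at an adjusted p below 0.05, grey marks the others, and dotted lines mark 1.5-fold. Every estimate lies within the dotted lines, and the interval crosses them for *TADA1*, *ATXN7* and *TAF12*.

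Levels of different subunits were compared per kilobase of the canonical GENCODE transcript. In control libraries *TADA3* was the most abundant at 40.5 ± 1.45 (SD, n = 2) CPM per kilobase, followed by *KAT2A* at 30.7 ± 1.07, *SUPT7L* at 18.8 ± 0.873, *SUPT20H* at 14.5 ± 0.437, *TADA1* at 12.2 ± 0.345 and *TAF5L* at 10.1 ± 0.21. The replicates of each of these stood apart from those of the next in order. *TAF6L* at 4.9 ± 0.328 and *TADA2B* at 4.82 ± 0.298 did not differ beyond their spread, nor did *SUPT3H* at 3.39 ± 0.0296 and *KAT2B* at 3.38 ± 0.463, the lowest pair. The levels thus spanned a range of about an order of magnitude between subunits, while changes between groups stayed under 1.5-fold.

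In sgUSP22 libraries the order was the same for the top 3 subunits. Lower down, *TADA1*, at 17.5 ± 0.0126 (SD, n = 2) CPM per kilobase, stood above *SUPT20H* at 14.9 ± 0.904, *TADA2B* at 6.02 ± 0.277 above *TAF6L* at 4.96 ± 0.54, and *KAT2B* at 4.19 ± 0.0133 above *SUPT3H* at 2.85 ± 0.136. In control libraries *SUPT20H* stood above *TADA1*, and the other pairs overlapped. The lengths used are those of 1 transcript per gene, and which transcripts the cells used was not analysed here.

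**Figure D3:**
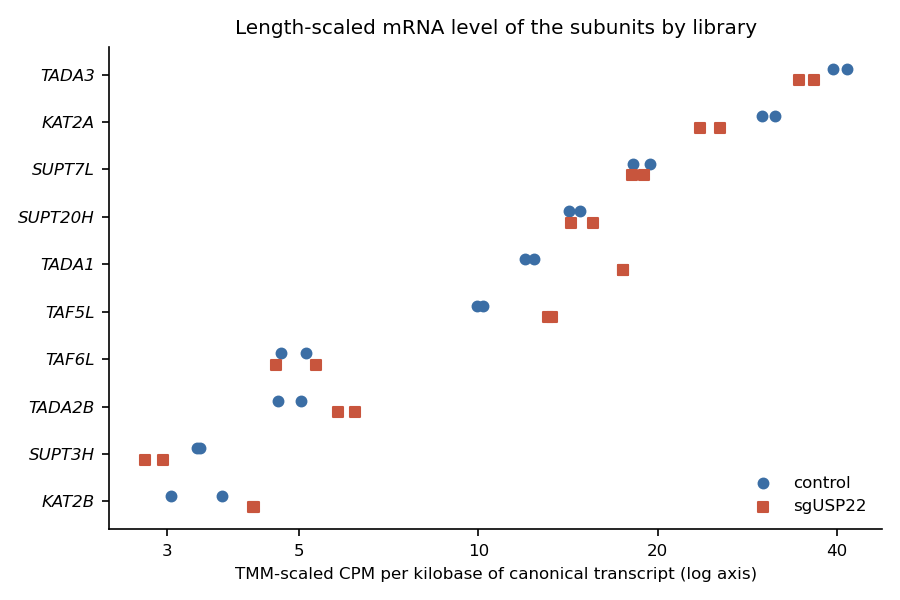
Level of each subunit per kilobase of canonical transcript on a log axis, in TMM-scaled CPM, ordered by the control mean, with 1 point per library (control as blue circles, sgUSP22 as red squares). *TADA3* is at the top with 40.5 in control libraries, and *SUPT3H* and *KAT2B* are at the bottom with 3.39 and 3.38.

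Each of *TADA2B*, *TAF5L* and *TAF6L* has a paralog in another complex: *TADA2A* in the ATAC acetyltransferase complex, and *TAF5* and *TAF6* in TFIID. *TAF5* was lower, with 27.7 and 26.3 CPM in control and 21.2 and 22.4 CPM in sgUSP22 libraries and a log2 fold change of -0.31 (adjusted p = 0.00617 by edgeR), while *TAF5L* was higher. The ratio of *TAF5L* to *TAF5* per kilobase was 1.2 and 1.23 in control and 2.04 and 1.91 in sgUSP22 libraries. This 1.63-fold rise of the ratio exceeded the spread between replicates, which had an SD of 0.0505 on the log2 scale against a change of 0.70.

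*TAF6* was lower too, with a log2 fold change of -0.35 (adjusted p = 5.79e-05 by edgeR), and the ratio of *TAF6L* to *TAF6* was 0.0978 and 0.0923 in control and 0.114 and 0.131 in sgUSP22 libraries. The ratio of *TADA2B* to *TADA2A* was 2.25 and 2.32 in control and 2.53 and 2.2 in sgUSP22 libraries, and these overlapped. The exact two-sided permutation test gave 0.333 for both TAF ratios, the smallest p that 2 against 2 libraries allow, and 1 for the TADA2 ratio. Ratios within a library do not depend on how libraries are scaled.

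**Figure D4:**
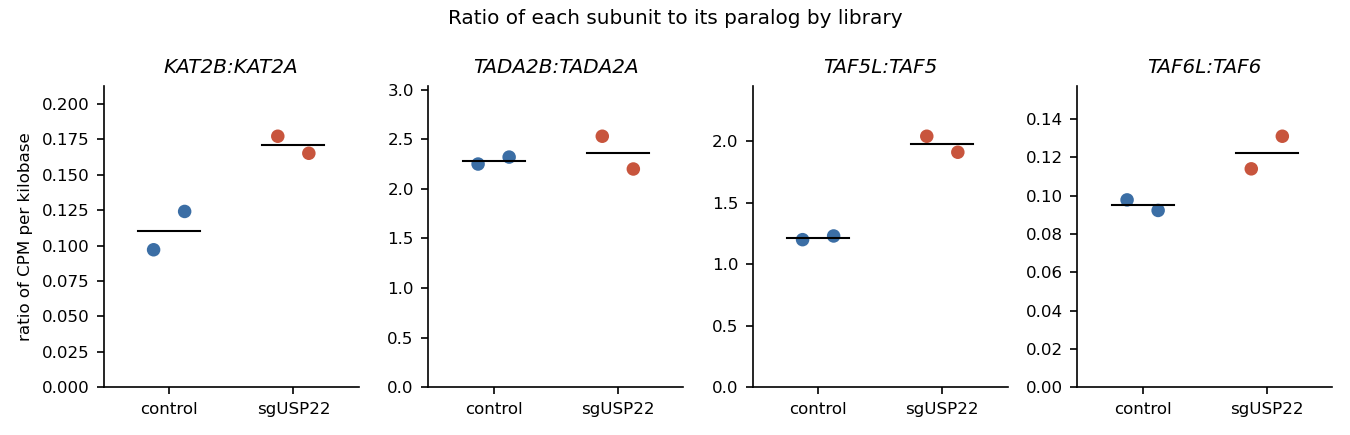
Ratio of each subunit to its paralog in every library, from CPM per kilobase of canonical transcript, on axes that start at 0, with bars at the group means. The sgUSP22 libraries lie above the control libraries for *KAT2B* to *KAT2A*, *TAF5L* to *TAF5* and *TAF6L* to *TAF6*, and overlap them for *TADA2B* to *TADA2A*.

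Of 12 other SAGA subunits on the list, *USP22* included, 4 were higher, 3 lower and 5 did not pass the adjusted p threshold by edgeR, where 26.8% of all tested genes were higher and 25.8% lower, 52.5% in all. In the deubiquitinase module 3 of 4 genes were higher, while *ENY2* did not pass (log2 fold change 0.073, adjusted p = 0.289 by edgeR). Beside *USP22*, *ATXN7*, which anchors the module to the core, had 26.6 and 27.4 CPM in control and 40.2 and 39.8 CPM in sgUSP22 libraries (log2 fold change 0.57, adjusted p = 4.02e-05 by edgeR), and *ATXN7L3*, which activates USP22, had a log2 fold change of 0.24 (adjusted p = 0.00219 by edgeR). *TRRAP*, the large subunit that activators bind, was higher, with 99.7 and 102 CPM in control and 122 and 122 CPM in sgUSP22 libraries (log2 fold change 0.27, adjusted p = 0.00022 by edgeR). The TAFs that SAGA shares with TFIID were lower or did not pass: *TAF12* had a log2 fold change of -0.46 (adjusted p = 0.00179) and *TAF10* of -0.28 (adjusted p = 0.000994, both by edgeR), while *TAF9* and *TAF9B* did not pass. *SF3B3*, a splicing factor subunit also found in SAGA, had a log2 fold change of -0.16 (adjusted p = 0.00205 by edgeR). None of the 12 reached 1.5-fold, and their median log2 fold change was 0.013.

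Correcting for GC content and transcript length moved some estimates more than any other setting did. The canonical transcripts ranged from 37.4% G and C in *SUPT3H* to 63.8% in *TAF6L*. The estimates of the 5 transcripts richest in G and C rose with the correction and those of the other 5 fell. The shift depends on GC content and length by construction, and a group difference linked to them is removed as well. *TAF6L* went to 0.23 (adjusted p = 0.151 by edgeR), and the transcripts of *KAT2A* and *KAT2B*, whose corrected values are given above, have 59.9% and 41.2% G and C. *TADA1*, *TAF5L*, *TADA2B* and *KAT2A* were past the adjusted p threshold in every fit but the test against a fold change of 1.5. The direction of all 7 subunits that passed was the same under each scaling.

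**Figure D5:**
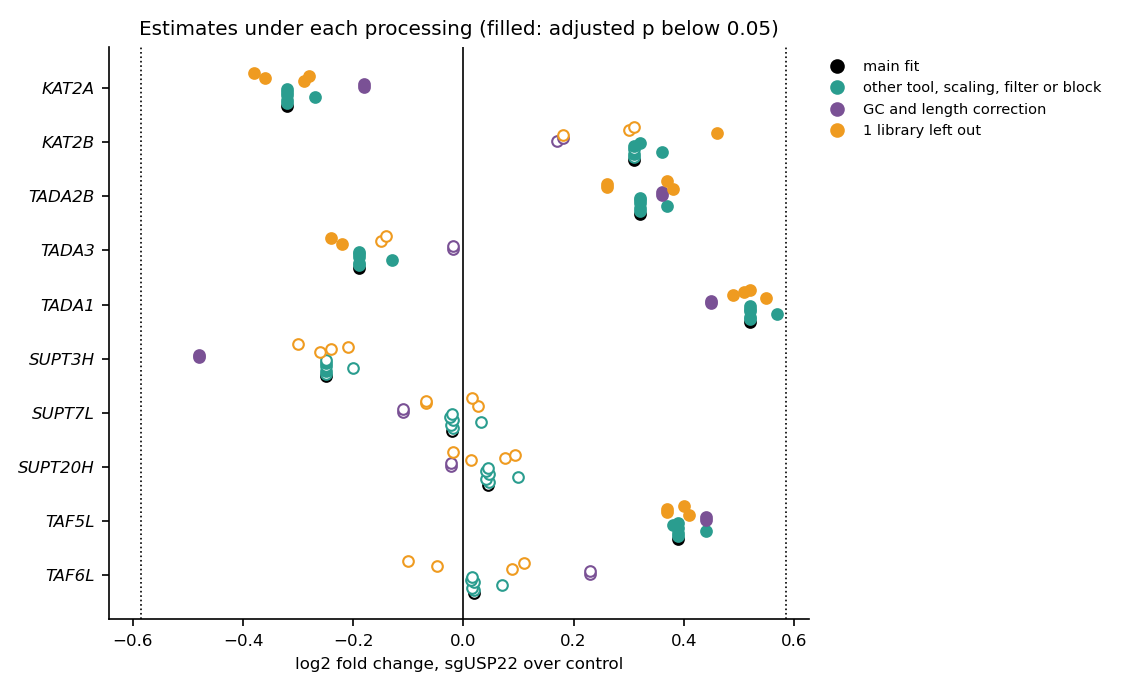
Log2 fold change (sgUSP22 over control) of each subunit in the main fit, with other tools, scalings, filters or the replicate block, corrected for GC content and length, and with 1 library left out, filled where the adjusted p was below 0.05. *TADA1*, *TAF5L*, *TADA2B* and *KAT2A* are filled throughout, *KAT2B*, *TADA3* and *SUPT3H* are open in some settings, and dotted lines mark 1.5-fold.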

How the data were processed

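The authors aligned reads to hg38 with HISAT2 2.2.1, calculated gene counts with StringTie 2.2.1 and deposited them as whole-number counts that are not divided by library size. The version numbers are from the submitters' processing notes. The annotation, strand setting and read length are not given in the sources used here, and StringTie derives counts from coverage, so counting error alone understates their error.

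Columns were matched to samples by name. The counts of 15150 genes that passed filterByExpr (minimum count 10 in a group) were scaled by TMM and fitted with the quasi-likelihood functions of edgeR 4.0.16, run in R 4.3.3, and p-values were adjusted by Benjamini-Hochberg over these genes. Genes past an adjusted p of 0.05 are given as higher or lower, and called genes also changed by at least 1.5-fold. The SE was derived from the F statistic, and 95% intervals use the t distribution. The alternatives were DESeq2 1.42.0, scaling by RLE or by library size only, omission of the filter or a filter at a mean of 50 counts, the replicate number as a block, a lowess correction (span 0.3) for GC content and length, testing against 1.5-fold, and omission of 1 library at a time. The main edgeR fit, the replicate block, the GC and length correction, the test against 1.5-fold and DESeq2 were also run on simulated counts. The simulated counts held no GC trend, the other alternatives were not simulated, and the outcome is not reported here. Overlaps and canonical lengths are from GENCODE v44.

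The members and lists were chosen with earlier results of these data known. Named are the 10 subunits, *USP22*, other SAGA subunits past the adjusted p threshold, at most 3 genes of each further list and of the marker lists, and the 3 genes nearest to *TADA1*, of which 1 is not reported here. Neighbouring genes, paralogs, further marker genes, genes listed at 0 and genes that did not pass were named after their values were seen.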

Additional observations from a re-analysis of the deposited data

How the results depend on the processing

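The subunits had from 589 to 5976 counts per library, and the SE was 0.119 for *TAF6L*, with the fewest counts, against 0.0501 for *KAT2A*, with the most. Depth and the number of libraries, 2 per group, were not told apart as limits. Among 99 comparisons of 11 genes (the 10 subunits and *USP22*) with 9 other settings, 78 gave the same sign and the same answer at an adjusted p of 0.05. No subunit was called at 1.5-fold in any setting. In the test against 1.5-fold 0 subunits were higher and 0 lower, by its construction, with the estimates unchanged: 0.52 for *TADA1*, 0.39 for *TAF5L*, 0.32 for *TADA2B*, 0.31 for *KAT2B*, -0.32 for *KAT2A*, -0.25 for *SUPT3H*, -0.19 for *TADA3* and 0.22 for *USP22*. *KAT2B* was not past the threshold with DESeq2 (0.31) or no filter (0.31, adjusted p = 0.0861). *SUPT3H* was not with DESeq2 (-0.25), library size alone (-0.20) or no filter (-0.25, adjusted p = 0.0658). After the GC and length correction *KAT2B* (0.17, and 0.18 with the replicate block) and *TADA3* (-0.018 in both) no longer passed, and *SUPT20H* changed sign (-0.023 in both), as *SUPT7L* did with library size alone (0.032). The cause was not tested. Libraries with the same replicate number share no stated batch, and with only 2 pairs the correlation of their deviations (0.17) does not establish pairing. Under the replicate block, *SUPT3H* did not pass (-0.25, adjusted p = 0.0519), and no other subunit changed its call.

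With 1 library left out, the lone library of a group is assumed to vary like the others. The log2 fold changes then ranged from -0.38 to -0.28 for *KAT2A*, 0.18 to 0.46 for *KAT2B*, 0.26 to 0.38 for *TADA2B*, -0.24 to -0.14 for *TADA3*, 0.49 to 0.55 for *TADA1*, -0.30 to -0.21 for *SUPT3H*, -0.068 to 0.027 for *SUPT7L*, -0.018 to 0.093 for *SUPT20H*, 0.37 to 0.41 for *TAF5L*, -0.10 to 0.11 for *TAF6L* and 0.21 to 0.23 for *USP22*. Subunits higher at the adjusted p threshold numbered 3 or 4, against 4, and those lower 1 or 2, against 3, with 1 left when control replicate 2 or sgUSP22 replicate 2 was omitted.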

Other observations

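Lists of related complexes, described by counts at the adjusted p threshold of edgeR's quasi-likelihood test, held genes that moved both ways. Over all tested genes 26.8% were higher and 25.8% lower at this threshold, and 8.88% and 7.25% with the 1.5-fold threshold added, and nothing particular to a list is read from its counts. Of 12 TFIID subunits, 5 were higher, 2 lower and 5 did not pass, with a median log2 fold change of 0.15. *TAF4B* (0.36), *TAF6* (-0.35) and *TAF13* (0.32) had the largest log2 fold changes. Of 8 ATAC subunits, 3 were higher and 4 lower, led by *WDR5* (0.44), *MBIP* (0.43) and *POLE4* (-0.35). Of 15 subunits of the TIP60 complex, which shares TRRAP with SAGA, 1 was higher (*EPC2*, 0.35) and 4 were lower, *VPS72* (-0.27) and *RUVBL1* (-0.22) among them.

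Of 8 further acetyltransferase genes, 2 were higher and 1 lower. *KAT6A* had 84.3 and 85.6 CPM in control and 126 and 128 CPM in sgUSP22 libraries, a log2 fold change of 0.58 (adjusted p = 1.92e-06 by edgeR). *EP300*, which encodes the coactivator p300, had one of 0.46 (adjusted p = 7.88e-05 by edgeR), and *KAT8* one of -0.28. The deacetylases and sirtuins, which remove acetyl groups, had 5 genes higher and 7 lower of 18. *HDAC9* was the 1 gene among them called lower at 1.5-fold, with 5.12 and 4.55 CPM in control and 2.31 and 1.97 CPM in sgUSP22 libraries (log2 fold change -1.17, adjusted p = 0.000362 by edgeR), and *SIRT4* the 1 called higher (0.91, adjusted p = 0.01 by edgeR). *SIRT6* had a log2 fold change of -0.49.

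The genes whose centred log2 CPM over the 4 libraries lay nearest to that of *TADA1* included *USP7* and *CASP8*, at Euclidean distances of 0.0163 and 0.0172 on the log2 scale. *USP7* had 107 and 103 CPM in control and 149 and 152 CPM in sgUSP22 libraries. With 4 libraries in 2 groups such likeness is common, and 360 of 15149 other tested genes lay within 0.1.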
